A study of Mus musculus with 6 samples.

Results

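The Slit and netrin guidance system was followed through 10 genes: the ligands Slit1, Slit2, Slit3 and Ntn1 and the receptors Robo1, Robo2, Dcc, Unc5a, Unc5c and Unc5d. They were taken by symbol from a table of 25814 mouse genes. The rule used no measured value, but earlier results of these data were known when the genes were chosen. The genotypes compared, in C57BL/6 neurons, were Tlr7-/- (3 libraries), without the endosomal RNA sensor Toll-like receptor 7, and wild type (WT, 3 libraries). Both were mixed cultures of cortical and hippocampal cells grown in a Neurobasal and DMEM medium with B27 supplement and collected after 18 days in vitro. The labels do not say how the Tlr7 allele was made, or whether replicates came from separate animals or cultures, so p-values measure the spread between these libraries only, which may be technical.

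Slits are secreted proteins that bind Robo receptors on growth cones and migrating neurons, and in most settings they repel them. Netrin-1, the product of Ntn1, attracts axons through the receptor Dcc and repels them through Unc5 receptors, alone or together with Dcc. In cortex and hippocampus these cues are known for steering commissural, callosal and thalamocortical axons, for guiding migrating neurons and for shaping dendrites and synapses.

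All 10 genes passed the filter on low counts, which kept 13947 genes. Totals ran between 23272450 and 25696625 counts per library. The targeted gene gives no check of the labels, since Tlr7 had 3 to 5 counts in Tlr7-/- libraries and 4 to 8 counts in WT libraries. The libraries did not group by genotype alone. In the labels, Tlr7-/- replicate 1 has a library name of the same style as the WT libraries, and Tlr7-/- replicates 2 and 3 have another. A first principal component holding 62.8% of the variance set replicates 2 and 3 apart, and their deviations from the mean profile ran with GC content at Spearman's rho = -0.545 and -0.46, against 0.306 in Tlr7-/- replicate 1 and 0.359 to 0.513 in WT (across genes, a description). Mitochondrial genes held 4.4% and 4.19% of counts in those libraries, 2.98% in Tlr7-/- replicate 1 and 2.6% to 3.14% in WT. Each gene is therefore given in every library, and beside the genotype test stand tests of Tlr7-/- replicate 1 and of Tlr7-/- replicates 2 and 3, each against WT, and of those Tlr7-/- replicates against replicate 1. The first and the last of these rest on a single library on one side, whose spread is assumed to be like that of the others. Naming style and genotype cannot be told apart in replicates 2 and 3. That the libraries differ along this split was known from earlier results of these data. The p-values of these comparisons are therefore no separate evidence that the knockout libraries divide.

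Between the genotypes, 7 of the 10 genes had a higher mean in Tlr7-/- neurons and 3 a lower one, and none passed the test. With edgeR's quasi-likelihood test the adjusted p of the 10 genes lay between 0.112 for Unc5d and 0.635 for Slit1, where 0% of all genes tested were called. At an unadjusted p under 0.05, edgeR marked 5 of the 10 genes, Slit2, Robo1, Dcc, Unc5c and Unc5d, all with higher values in Tlr7-/- libraries, beside 28.2% of all genes tested at that level in either direction and 15.6% that were higher. The same 5 genes had all 3 Tlr7-/- libraries above all 3 WT libraries in CPM (counts scaled to library size), as did 16.5% of all genes tested. In TPM, the authors' abundance per transcript length, Slit3 joined them, beside 23.2% of genes. The reverse order, with WT above in every library, held for none of the 10 on either scale, and for 16.2% of genes in CPM and 10.7% in TPM. The median log2 fold change of the 10 genes was 0.32, beside 0.0014 for all genes tested. With offsets for GC content and transcript length in the model, taken up below, it was -0.016, beside 0.0185 for all genes tested. In that fit 2 of the 10 genes had an unadjusted p under 0.05 by edgeR, as did 2844 of the 13947 genes tested. DESeq2's Wald test called 1754 genes in this comparison, and Slit2, Robo1 and Unc5d were among them with adjusted p of 0.0457, 0.0216 and 0.000355 in that test.

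**Figure D1:**
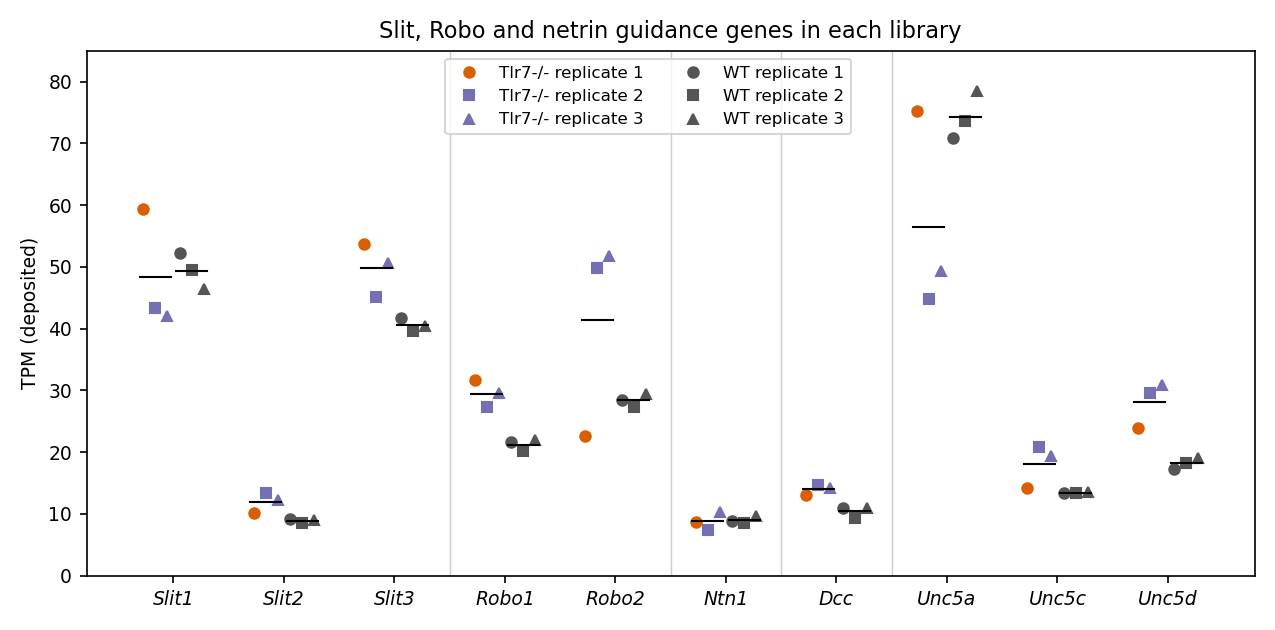
TPM of each of the 10 guidance genes in every library, Tlr7-/- left and WT right, with 1 point per library and a bar at the group mean; replicate 1 of Tlr7-/- is marked apart from replicates 2 and 3. The Unc5d points of Tlr7-/- sit at 24.0 to 30.8 TPM, above all WT points, while the Robo2 and Unc5a points of Tlr7-/- replicate 1 lie far from those of replicates 2 and 3.

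The plot of levels by library shows a knockout group that split for several genes. In Tlr7-/- replicates 2 and 3 against WT, 6 of the 10 genes rose (Slit2, Robo1, Robo2, Dcc, Unc5c and Unc5d) and 2 fell (Slit1 and Unc5a), where edgeR called 49.6% of all genes tested, 24.4% as higher and 25.2% as lower. In Tlr7-/- replicate 1 against WT only Robo1 of the 10 was called by edgeR, as higher, where 1.43% of all genes were called and 0.889% were higher. Within the genotype, Tlr7-/- replicates 2 and 3 exceeded replicate 1 in Robo2 and Unc5c and were lower in Slit1 and Unc5a, and 31.6% of all genes tested were called there in either direction. For 7 of the 10 genes both of those replicates lay beyond all other 4 libraries in CPM, which also held for 60.2% of genes tested.

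**Figure D2:**
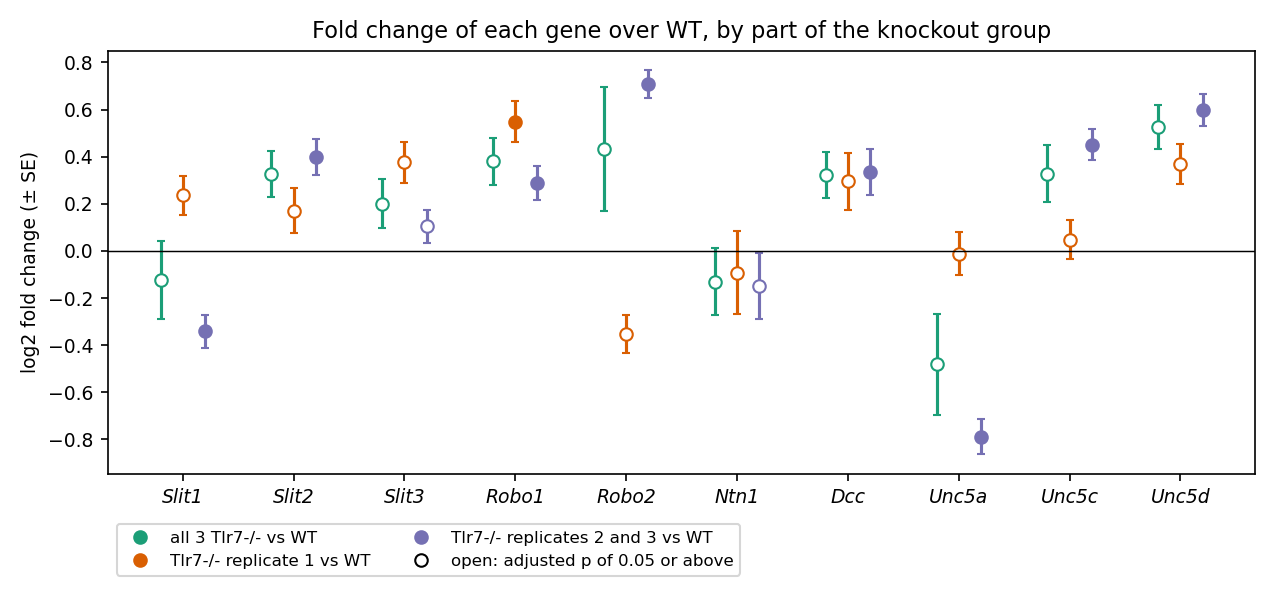
Log2 fold changes of the 10 genes with their standard errors in the 3 comparisons with WT, as fitted by edgeR on counts, where open circles have an adjusted p of 0.05 or above. Robo2 runs from -0.35 in Tlr7-/- replicate 1 against WT to 0.71 in Tlr7-/- replicates 2 and 3 against WT, and Robo1 lies above 0 in both.

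The 3 Slit ligands had different orders of level over the Tlr7-/- libraries, and the plot of fold changes shows them gene by gene. Slit1 (chr19:41600257-41743665, minus strand, GRCm38 as for all positions here), which in brain is largely a neuronal Slit, had 59.3, 43.4 and 42.1 TPM in Tlr7-/- replicates 1, 2 and 3, against 52.3, 49.6 and 46.3 TPM in WT replicates 1, 2 and 3. Replicate 1 was the highest of all libraries and replicates 2 and 3 were the lowest, so the genotypes overlapped, at 48.3 ± 9.6 TPM in Tlr7-/- and 49.4 ± 2.98 TPM in WT (SD, n = 3 each). The genotype difference was -0.12 ± 0.16 (log2 fold change ± SE, edgeR adjusted p = 0.635). Tlr7-/- replicates 2 and 3 fell by 0.34 against WT (edgeR adjusted p = 0.00272) and by 0.58 against replicate 1 (edgeR adjusted p = 0.00167).

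Slit2 (chr5:47983138-48307733, plus strand), the Slit best known for repelling commissural and cortical axons, had 10.2, 13.4 and 12.3 TPM in Tlr7-/- libraries, against 9.17, 8.47 and 9.07 TPM in WT libraries. All Tlr7-/- libraries were above all WT libraries, with replicate 1 nearest to WT. The genotype difference was 0.33 ± 0.10 (log2, edgeR adjusted p = 0.123), and Tlr7-/- replicates 2 and 3 rose by 0.40 ± 0.08 against WT (edgeR adjusted p = 0.00204). Slit3 (chr11:35121224-35708507, plus strand), a Slit also made outside the nervous system, had 53.7, 45.1 and 50.6 TPM in Tlr7-/- libraries, against 41.7, 39.6 and 40.5 TPM in WT libraries. The groups did not overlap in TPM, here with replicate 1 the highest. Its log2 differences were 0.20 ± 0.10 between genotypes (edgeR adjusted p = 0.236), 0.38 ± 0.09 in replicate 1 against WT (edgeR adjusted p = 0.074) and 0.10 ± 0.07 in replicates 2 and 3 against WT (edgeR adjusted p = 0.248).

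The Robo receptors moved apart from each other within the knockout group. Robo1 (chr16:72663149-73046095, plus strand) had 31.6, 27.3 and 29.6 TPM in Tlr7-/- libraries, against 21.6, 20.1 and 21.9 TPM in WT libraries. All 3 Tlr7-/- libraries were above all WT libraries, with means of 29.5 ± 2.18 TPM in Tlr7-/- and 21.2 ± 0.968 TPM in WT (SD, n = 3 each). The genotype difference was 0.38 ± 0.10 (log2, edgeR adjusted p = 0.116). Robo1 rose in replicate 1 against WT, by 0.55 ± 0.09 (edgeR adjusted p = 0.0266), and in replicates 2 and 3 against WT, by 0.29 ± 0.07 (edgeR adjusted p = 0.00808). The first call was lost without WT replicate 1 (edgeR adjusted p = 0.06) or WT replicate 2 (edgeR adjusted p = 0.128), and the second without Tlr7-/- replicate 3 (edgeR adjusted p = 0.0572) or WT replicate 2 (edgeR adjusted p = 0.0505).

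Robo2 (chr16:73892306-74411825, minus strand), the paralog that shares Slit1 and Slit2 as ligands with Robo1, had 22.7, 49.8 and 51.8 TPM in Tlr7-/- libraries, against 28.5, 27.3 and 29.3 TPM in WT libraries. Replicate 1 was the lowest of all 6 libraries and replicates 2 and 3 the highest, so WT lay between them. The genotype difference was 0.43 ± 0.26 (log2, edgeR adjusted p = 0.302), the widest error of the 10 genes. Robo2 rose by 0.71 ± 0.06 in replicates 2 and 3 against WT (edgeR adjusted p = 3.03e-05) and by 1.06 ± 0.09 in them against replicate 1 (edgeR adjusted p = 7.29e-05), and its difference in replicate 1 against WT was -0.35 ± 0.08 (edgeR adjusted p = 0.0684). It was called lower in that last comparison by DESeq2, with an adjusted p of 0.0225.

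The bases just before the starts of Robo1 and Robo2, which lie on the same chromosome and parted in the knockout libraries, and of Unc5a, which had the lowest fold change of the 10 in replicates 2 and 3, are shown 5′ to 3′ from RefSeq's promoter windows on GRCm38.p6. Capitals mark GC boxes (GGGCGG on either strand). Their positions are chr16:72662899-72663148 (plus strand), chr16:74411826-74412075 (minus strand) and chr13:54949161-54949410 (plus strand), 250 bases each.
Robo1: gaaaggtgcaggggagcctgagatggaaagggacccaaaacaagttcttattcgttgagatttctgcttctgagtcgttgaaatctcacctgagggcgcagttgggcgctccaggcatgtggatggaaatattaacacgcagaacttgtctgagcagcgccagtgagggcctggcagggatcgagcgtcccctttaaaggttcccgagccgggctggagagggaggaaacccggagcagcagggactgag
Robo2: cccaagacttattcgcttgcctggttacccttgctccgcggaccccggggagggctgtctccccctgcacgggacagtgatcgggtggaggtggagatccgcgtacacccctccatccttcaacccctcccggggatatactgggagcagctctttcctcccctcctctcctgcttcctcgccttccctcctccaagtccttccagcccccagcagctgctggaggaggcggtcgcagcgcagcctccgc
Unc5a: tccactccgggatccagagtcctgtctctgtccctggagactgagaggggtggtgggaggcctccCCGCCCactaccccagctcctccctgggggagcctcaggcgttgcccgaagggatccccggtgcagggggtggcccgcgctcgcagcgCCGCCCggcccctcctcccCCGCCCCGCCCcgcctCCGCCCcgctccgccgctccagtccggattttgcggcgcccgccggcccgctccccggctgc

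RefSeq windows were matched for 6 of the 10 genes, with 8 starts. The Robo2 stretch belongs to the start that equals the end of the deposited gene, and RefSeq has other starts for this gene 680945 and 1035468 bases beyond it. In the full windows of 300 bases, which add 50 bases after the start, Unc5a had 78.3% GC, 37 CpG and 5 GC boxes (overlapping matches counted), Robo2 65% GC and 17 CpG, and Robo1 57% GC and 15 CpG, beside medians of 52.7% GC and 7 CpG over 32851 promoter windows. Neither Robo window held a GC box, which 35.7% of all windows held. On both strands, none of these 3 windows held the TATA box TATAAA (13.6% of all windows), the cyclic AMP response element TGACGTCA (1.8%) or the AP-1 motif TGANTCA (7.8%, N being any base). No motif match is read here as a binding site.

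Ntn1 and its receptor Dcc differed in how they compared with WT. Ntn1 (chr11:68209364-68400823, minus strand), the ligand, had 8.64, 7.46 and 10.4 TPM in Tlr7-/- libraries, against 8.79, 8.58 and 9.71 TPM in WT libraries. The groups overlapped fully, with Tlr7-/- replicate 2 the lowest and replicate 3 the highest. No difference passed the test, with -0.13 ± 0.14 between genotypes (log2, edgeR adjusted p = 0.550), although without Tlr7-/- replicate 3 replicate 2 alone was called lower than WT, at -0.42 (log2, edgeR adjusted p = 0.0278). At 353 counts in Tlr7-/- replicate 2, this was the lowest count of any of the 10 genes.

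Dcc (chr18:71258738-72351069, minus strand), the attractive netrin receptor, had 13.1, 14.7 and 14.2 TPM in Tlr7-/- libraries, against 11.0, 9.36 and 10.9 TPM in WT libraries. All Tlr7-/- libraries, replicate 1 included, were above all WT libraries. The genotype difference was 0.32 ± 0.10 (log2, edgeR adjusted p = 0.124), beside 0.30 ± 0.12 in replicate 1 against WT (edgeR adjusted p = 0.28) and a rise of 0.34 ± 0.10 in replicates 2 and 3 against WT (edgeR adjusted p = 0.0177). The call in replicates 2 and 3 was lost without Tlr7-/- replicate 2 (edgeR adjusted p = 0.0681) or WT replicate 2 (edgeR adjusted p = 0.0894).

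The Unc5 receptors, which mediate repulsion by netrin-1 and also bind FLRT proteins, differed among themselves in direction. Unc5d (chr8:28646717-29219636, minus strand), a receptor for Flrt2 known from migrating cortical neurons, had 24.0, 29.6 and 30.8 TPM in Tlr7-/- libraries, against 17.2, 18.3 and 19.1 TPM in WT libraries. Every Tlr7-/- library was above every WT library. Its genotype difference of 0.53 ± 0.09 (log2) had the lowest p of the 10 genes, ranked 83 among all genes tested (edgeR adjusted p = 0.112). It also had the lowest false discovery rate of the 10 in the authors' deposited table, 0.0722 with a log2 fold change of 0.47, which the direction of other genes in that table shows to be Tlr7-/- over WT. Unc5d rose by 0.60 ± 0.07 in replicates 2 and 3 against WT (edgeR adjusted p = 0.00012), beside 0.37 ± 0.08 in replicate 1 against WT (edgeR adjusted p = 0.0711).

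Unc5c (chr3:141465216-141834924, plus strand), known from cerebellar and corticospinal guidance, had 14.2, 20.9 and 19.4 TPM in Tlr7-/- libraries, against 13.4, 13.4 and 13.6 TPM in WT libraries. Replicate 1 was close to WT and the other Tlr7-/- libraries were well above. Its log2 difference was 0.33 ± 0.12 between genotypes (edgeR adjusted p = 0.147), 0.05 ± 0.08 in replicate 1 against WT (edgeR adjusted p = 0.833) and 0.45 ± 0.07 in replicates 2 and 3 against WT (edgeR adjusted p = 0.000461). Unc5a (chr13:54949411-55006018, plus strand), the member of the family with the highest level here, had 75.2, 44.9 and 49.4 TPM in Tlr7-/- libraries, against 70.9, 73.7 and 78.4 TPM in WT libraries. Replicate 1 lay among the WT libraries and replicates 2 and 3 far below them. Its log2 difference was -0.48 ± 0.21 between genotypes (edgeR adjusted p = 0.191), and Unc5a fell by 0.79 in replicates 2 and 3 against WT (edgeR adjusted p = 4.9e-05) and by 0.78 in them against replicate 1 (edgeR adjusted p = 0.00055). Unc5a overlaps Hk3 on the opposite strand, whose highest count was 17 in any library, and the counting's strand setting is not given in the sources used here.

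By level per length, the order of the 10 genes was nearly fixed in WT, with Unc5a first, then Slit1, Slit3, Robo2, Robo1, Unc5d, Unc5c and Dcc in all 3 libraries. Slit2 and Ntn1 came last and changed places between WT libraries. The WT range of Ntn1 overlapped those of Slit2 and Dcc, and no other neighbouring ranges overlapped. In Tlr7-/- replicates 2 and 3, Robo2 came first, followed by Slit3, Unc5a and Slit1. In Tlr7-/- replicate 1, Unc5a, Slit1 and Slit3 led as in WT, and Robo2 stood sixth, behind Robo1 and Unc5d. Over all 6 libraries, Unc5a at 65.4 ± 14.4 TPM (SD, n = 6) had a mean above 78.1% of genes tested, and Ntn1 at 8.92 ± 1.0 TPM (SD, n = 6) one above 30.1%.

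Paralogs share ligands, and their balance within each library was compared as well, as the log2 ratio of their TPM, which does not depend on library scaling. Robo1 made up 58.2%, 35.4% and 36.3% of the summed TPM of the pair with Robo2 in Tlr7-/- replicates 1, 2 and 3, against 43.1%, 42.5% and 42.8% in WT replicates. Tlr7-/- replicate 1 was thus above WT and the other Tlr7-/- replicates below it, and the mean log2 ratios were almost equal, at -0.40 ± 0.76 in Tlr7-/- and -0.42 ± 0.02 in WT (SD, n = 3 each), with p = 1 in a two-sided exact permutation test. Within the 3 Unc5 receptors followed here, the share of Unc5a was 66.3%, 47.1% and 49.6% in Tlr7-/- libraries, against 69.9%, 70.0% and 70.6% in WT libraries, and that of Unc5d was 21.2%, 31.0% and 30.9% in Tlr7-/- libraries, against 16.9%, 17.3% and 17.2% in WT libraries. Both shares separated the genotypes in every library, replicate 1 included. As parts of the same sum they are not independent, and they were not corrected for GC content or transcript length. How often shares in other gene families separate was not computed.

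The log2 ratio of Unc5a to Unc5d was 1.65, 0.60 and 0.68 in Tlr7-/- libraries, against 2.04, 2.01 and 2.04 in WT libraries, a difference of -1.05 (two-sided exact permutation p = 0.1, Benjamini-Hochberg adjusted 0.15 over 6 ratios). With 3 libraries against 3, 0.1 is the smallest p this test can give, so no ratio could pass 0.05. It was also reached by Slit1 to Slit3 (difference -0.34), Unc5c to Unc5d (-0.21) and Dcc to Ntn1 (0.47), for which the genotypes did not overlap. The share of other gene pairs without overlap was not computed, and the ratios were not corrected for GC content or transcript length. Slit1 to Slit2 differed by -0.47 with overlap (two-sided exact permutation p = 0.3, adjusted 0.36), and its value in Tlr7-/- replicate 1, 2.54, lay within the WT range.

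**Figure D3:**
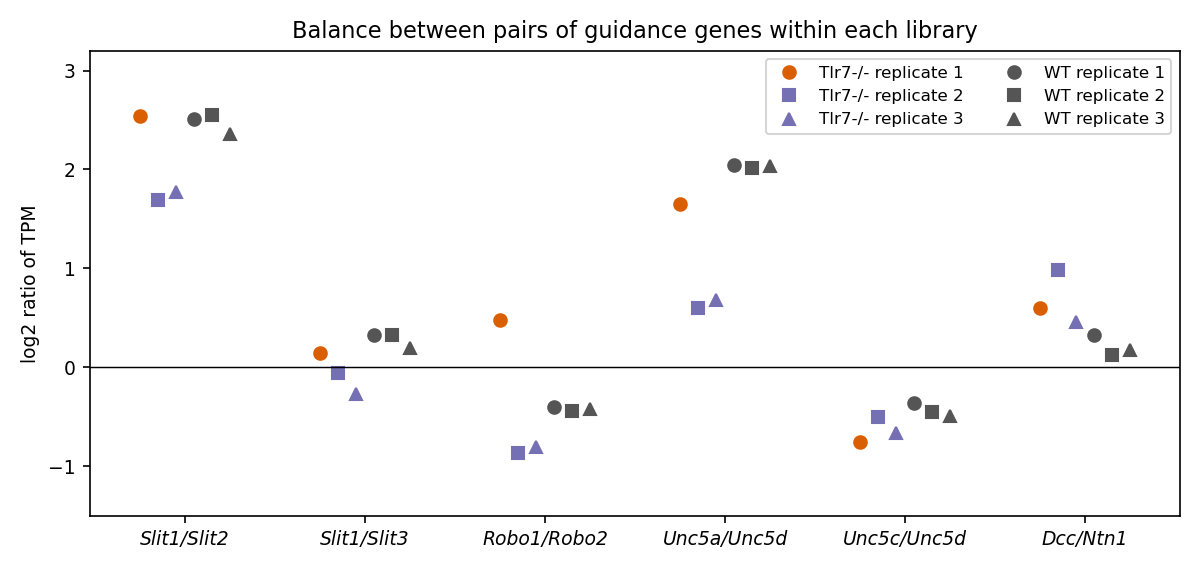
Log2 ratios of TPM between paralogs and between receptor and ligand in each library, Tlr7-/- left and WT right. The Unc5a to Unc5d points of Tlr7-/- lie at 0.60 to 1.65, all below WT at 2.01 to 2.04, while for Robo1 to Robo2 the WT points lie between Tlr7-/- replicate 1 and replicates 2 and 3.

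The plot of paralog ratios has the division of the knockout libraries for Slit1 to Slit2, Robo1 to Robo2 and Unc5a to Unc5d. For Dcc to Ntn1 replicate 1 lay between replicates 2 and 3, and Slit1 to Slit3 and Unc5c to Unc5d had no such gap. Base composition ran with the division in the levels. The 4 genes whose longest GENCODE transcript has over 55% GC (Slit1, Slit3, Ntn1 and Unc5a, 3995 to 5874 bases long) had log2 fold changes between -0.79 and 0.10 in Tlr7-/- replicates 2 and 3 against WT. The 6 genes with under 50% GC (Slit2, Robo1, Robo2, Dcc, Unc5c and Unc5d, 7563 to 10323 bases long) had values between 0.29 and 0.71. The order of the 10 fold changes nearly followed GC content, with Unc5a at 62.7% GC lowest and Robo2 at 42.4% GC highest.

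**Figure D4:**
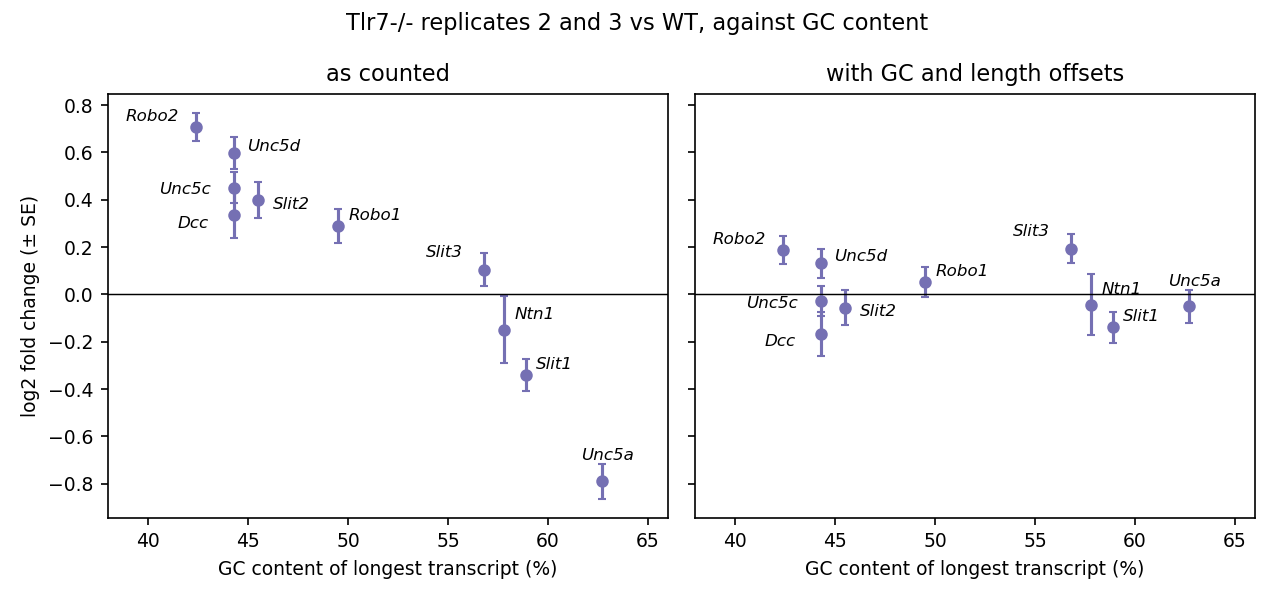
Log2 fold changes (± SE) in Tlr7-/- replicates 2 and 3 against WT over the GC content of each gene's longest transcript in percent, as counted (left) and with GC content and length offsets in the model (right). The points fall from 0.71 at 42.4% GC to -0.79 at 62.7% GC on the left and lie between -0.17 and 0.19 on the right.

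When each library's trend of counts over GC content and transcript length was put into the edgeR model as an offset, 2 of the 10 genes were called in replicates 2 and 3 against WT, both higher, beside 32.6% of all genes tested called in either direction, as the right side of the plot over GC content shows. Those were Robo2 at 0.19 ± 0.06 (log2, edgeR adjusted p = 0.0404) and Slit3 at 0.19 ± 0.06 (log2, edgeR adjusted p = 0.0369), the second not called on counts alone. Unc5a had -0.05 ± 0.07 in that fit (log2, edgeR adjusted p = 0.607) and Unc5d 0.13 ± 0.06 (log2, edgeR adjusted p = 0.125). The median of the 10 genes was then -0.04 in place of 0.31. Composition and length share their direction in these genes, and what part of the differences they carry beyond this fit was not tested.

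The comparisons that involve replicate 1 also had calls with the offsets. Robo1 in replicate 1 against WT stood at 0.47 ± 0.08 (log2, edgeR adjusted p = 0.0247), and 1.43% of all genes tested were called in that fit in either direction. Robo2 in replicate 1 against WT stood at -0.47 ± 0.08 (log2, edgeR adjusted p = 0.029). Within the genotype, replicates 2 and 3 against replicate 1 had Robo2 at 0.66 ± 0.09 (log2, edgeR adjusted p = 0.00114), Slit1 at -0.35 ± 0.09 (log2, edgeR adjusted p = 0.0217) and Robo1 at -0.42 ± 0.08 (log2, edgeR adjusted p = 0.00799), where 18.7% of all genes were called. Between the genotypes, no guidance gene of the 10 was called with the offsets, where 0.00717% of all genes tested were, and the highest value was Slit3 at 0.25 ± 0.07 (log2, edgeR adjusted p = 0.176). The other genes of the ratios without overlap had log2 values of -0.01 (Slit1), -0.03 (Unc5a), -0.04 (Unc5c), 0.17 (Unc5d), -0.05 (Dcc) and -0.07 (Ntn1) in that fit.

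Other genes of the pathway were read from 5 lists holding 51 genes, of which 50 were in the table and 48 were tested. Between the genotypes edgeR called none of the 48, as it called none of all genes, and 15 had an unadjusted p under 0.05, with 11 higher and 4 lower in Tlr7-/-, beside 28.2% of all genes tested at that level. Their median log2 fold change was 0.03 (all genes tested, 0.0014). In Tlr7-/- replicates 2 and 3 against WT, 15 rose and 11 fell, where 49.6% of all genes tested were called. With the GC content and length offsets 8 rose and 16 fell, where 32.6% of all genes tested were called. In replicate 1 against WT, 2 rose and none fell, where 1.43% of all genes tested were called.

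Among the 6 paralogs and alternative receptors tested, 3 rose and 1 fell in Tlr7-/- replicates 2 and 3 against WT, where 49.6% of all genes tested were called. With the offsets 2 rose and 2 fell (all genes tested, 32.6% called). Robo3, a divergent Robo known for letting commissural axons cross the midline, had 0.98, 10.6 and 14.7 TPM in Tlr7-/- libraries, against 2.10, 2.38 and 1.495 TPM in WT libraries. Replicate 1 was the lowest of all libraries and replicates 2 and 3 were far above the rest, which is the arrangement of Robo2. Robo3 rose by 2.54 ± 0.21 in replicates 2 and 3 against WT (log2, edgeR adjusted p = 3.85e-05) and stayed at 2.69 with the offsets, and the genotype difference was 2.01 ± 0.79 (log2, edgeR adjusted p = 0.16). Unc5b, the remaining Unc5 receptor, had 19.0, 9.72 and 7.22 TPM in Tlr7-/- libraries, against 17.5, 15.3 and 13.9 TPM in WT libraries, and fell by 1.01 in replicates 2 and 3 against WT (log2, edgeR adjusted p = 0.000495). Its replicate 1 lay above all WT libraries, so the genotypes overlapped.

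Ntn4, a netrin of basement membranes, had 21.0, 20.8 and 17.5 TPM in Tlr7-/- libraries, against 13.0, 13.5 and 13.5 TPM in WT libraries. All Tlr7-/- libraries were above WT, and Ntn4 rose both in replicate 1, by 0.62 ± 0.12 (log2, edgeR adjusted p = 0.042), and in replicates 2 and 3, by 0.39 ± 0.10 (log2, edgeR adjusted p = 0.00841), each against WT, while the genotype difference of 0.47 ± 0.11 did not pass (log2, edgeR adjusted p = 0.116). The call in replicate 1 was lost without WT replicate 1 (edgeR adjusted p = 0.108) or WT replicate 2 (edgeR adjusted p = 0.162), and that in replicates 2 and 3 without Tlr7-/- replicate 2 (edgeR adjusted p = 0.0687). Neo1 (neogenin), the Dcc paralog, had 91.2 to 113 TPM in Tlr7-/- and 83.7 to 93.6 TPM in WT, and its rise of 0.19 in replicates 2 and 3 (log2, edgeR adjusted p = 0.0287) was not called with the offsets, at -0.06 (log2, edgeR adjusted p = 0.548).

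Of the 11 other ligands and co-receptors, 3 rose and 4 fell in replicates 2 and 3 against WT, where 49.6% of all genes tested were called. With the offsets 1 rose and 3 fell (all genes tested, 32.6% called). Draxin, a secreted repellent that binds Dcc and netrin-1, had 2.04, 1.97 and 1.81 TPM in Tlr7-/- libraries, against 3.99, 3.61 and 2.86 TPM in WT libraries, at 74 to 186 counts. All Tlr7-/- libraries were below WT. Draxin fell by 1.02 in replicates 2 and 3 against WT (log2, edgeR adjusted p = 0.00201) and was at -0.94 ± 0.18 between genotypes (log2, edgeR adjusted p = 0.112). Flrt3, an Unc5 and Robo1 binding protein, rose by 0.42 in the same comparison (log2, edgeR adjusted p = 0.00094), a call lost with the offsets at 0.15 (log2, edgeR adjusted p = 0.101). Sdc3, a heparan sulfate proteoglycan, was at -0.56 (log2, edgeR adjusted p = 0.000143) and Dag1 (dystroglycan), which binds Slits, at 0.27 (log2, edgeR adjusted p = 0.00573). With the offsets both kept their call, at -0.33 and 0.23 (log2, edgeR adjusted p = 0.0022 and 0.00982).

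Of the 15 Slit-Robo effectors, 5 rose and 2 fell in replicates 2 and 3 against WT, where 49.6% of all genes tested were called. With the offsets 2 rose and 4 fell (all genes tested, 32.6% called). Vasp, an actin filament elongation factor, had 22.9, 14.2 and 15.01 TPM in Tlr7-/- libraries, against 29.5, 29.8 and 27.4 TPM in WT libraries, below WT in each. It fell by 1.12 in replicates 2 and 3 (log2, edgeR adjusted p = 4.07e-05), by 0.73 with the offsets, and was at -0.82 ± 0.21 between genotypes (log2, edgeR adjusted p = 0.116). Sos1, an exchange factor for Ras and Rac, and Srgap3, a Robo-binding GTPase-activating protein, rose by 0.49 and 0.33 (log2, edgeR adjusted p = 0.000434 and 0.0011), and neither was called with the offsets, at -0.10 and 0.09 (log2, edgeR adjusted p = 0.286 and 0.191). Abl2, a kinase whose fly relative Abl acts on Robo, rose in replicate 1 against WT by 0.35 ± 0.07 (log2, edgeR adjusted p = 0.0483), a call that held in 6 of 17 alternatives and was lost with the offsets at 0.23 (log2, edgeR adjusted p = 0.17).

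Of the 12 netrin-Dcc effectors, 1 rose and 4 fell in replicates 2 and 3 against WT, where 49.6% of all genes tested were called. With the offsets none rose and 7 fell (all genes tested, 32.6% called). Fyn, the Src family kinase that phosphorylates Dcc, fell by 0.36 (log2, edgeR adjusted p = 0.00201) and by 0.35 with the offsets, and Ablim1, an actin-binding protein, rose by 0.26 (log2, edgeR adjusted p = 0.00676), a call lost with the offsets at 0.06 (log2, edgeR adjusted p = 0.461). Pitpna, a phosphatidylinositol transfer protein that binds Dcc, fell by 0.16 (log2, edgeR adjusted p = 0.038), and Src fell by 0.28 (log2, edgeR adjusted p = 0.0139), a call lost with the offsets at 0.08 (log2, edgeR adjusted p = 0.376). Among genes of receptor-cleaving proteases, Adam10, a metalloprotease that sheds membrane receptors, rose by 0.47 in replicates 2 and 3 against WT (log2, edgeR adjusted p = 0.00159), a call lost with the offsets at 0.15 (log2, edgeR adjusted p = 0.154). Ncstn, a subunit of gamma-secretase, rose by 0.16 (log2, edgeR adjusted p = 0.0358), and by 0.29 with the offsets (log2, edgeR adjusted p = 0.00337). Psen2, of the same complex, was at 0.03 ± 0.09 (log2, edgeR adjusted p = 0.801), and at 0.31 ± 0.09 with the offsets (log2, edgeR adjusted p = 0.0221). The spans of Draxin, Flrt3, Sos1 and Ncstn overlap those of Mad2l2, Macrod2, Arhgef33 and Copa on the opposite strand. Whether their exons overlap was not examined, and the strand setting is not stated, so how many reads they share is not known. Arhgef33 had at most 29 counts in any library.

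Markers of other cells also moved between the groups. The labelled neurons were present, with summed TPM of 5 pan-neuronal genes at 3102 to 3513 in Tlr7-/- and 3083 to 3284 in WT. Of these 5 genes, 1 (Tubb3) was below WT in every Tlr7-/- library and 2 (Map2 and Snap25) were above. All 6 myelin genes were below WT in every Tlr7-/- library, at a summed 174 to 226 TPM in Tlr7-/- and 294 to 336 TPM in WT. Mog and Mobp were near the floor, at no more than 2.32 and 3.11 TPM in any library. Mog was at 0 in Tlr7-/- replicate 2. Of 5 oligodendrocyte precursor genes, 3 (Gpr17, Sox10 and Olig2) were below WT in every Tlr7-/- library, while Pdgfra and Cspg4 overlapped between the genotypes. The 5 genes summed to 243 to 309 TPM in Tlr7-/- and 434 to 483 TPM in WT. Among all genes tested, 10.7% were below WT in every Tlr7-/- library in TPM. The sums of both lists were lower in replicate 1 as well.

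GABAergic genes summed to 986 to 1562 TPM in Tlr7-/- and 1763 to 1874 TPM in WT, with 2 of 6 genes below WT in every Tlr7-/- library and 2 above, and Sst alone had 856, 271 and 324 TPM in Tlr7-/- libraries, against 1195, 1118 and 1184 TPM in WT libraries. Astrocyte genes summed to 1525 TPM in Tlr7-/- replicate 1, the lowest of any library, within a Tlr7-/- range of 1525 to 2309 TPM, and to 1920 to 2080 TPM in WT. Microglial genes stayed at 2.99 to 26.8 TPM in Tlr7-/- and 1.49 to 18.4 TPM in WT, and the endothelial gene Cdh5 was at 0 in every library. The part of these cells in the guidance gene values was not tested, and in bulk RNA fewer cells of a type and less RNA per cell cannot be told apart.

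The genes whose CPM profiles over the 6 libraries lay nearest to the 3 guidance genes of widest range were sought among all genes tested, by the root mean square distance of centred log2 CPM. For Robo2 they were Npnt and Tia1, at distances of 0.0495 and 0.0559, with Npnt at 3.83, 4.87 and 4.98 log2 CPM in Tlr7-/- libraries, against 4.19, 4.16 and 4.13 log2 CPM in WT libraries. For Unc5a they were Thop1 (0.0243) and Grm4 (0.0273), and for Unc5d Tanc2 (0.0229). Transcript GC content was 50.2% in Npnt and 41.2% in Tia1, beside 42.4% in Robo2, 60.2% in Thop1 and 61.7% in Grm4, beside 62.7% in Unc5a, and 48.2% in Tanc2, beside 44.3% in Unc5d.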

How the data were processed

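Messenger RNA of Tlr7-/- and WT neurons (3 libraries each) was sequenced on a NextSeq500 from TruSeq Stranded mRNA libraries, per the labels' protocols. The submitters' processing notes name bcl2fastq, HISAT2, featureCounts, edgeR and GRCm38.p6, without versions or which of them made which table. The authors deposited whole-number total counts for each gene, used here as the main measurement. They also deposited TPM values, used for levels and ratios, and RPKM values, used only as an alternative for the ratios. A second table deposited by the authors holds log2 fold changes, mean log2 CPM, p-values and false discovery rates, whose normalization is not given in the sources used here. No column of another sample was present.

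Genes were kept by filterByExpr on genotype (13947 of 25814, holding 99.96% of counts; 7852 had no count). Libraries were scaled by TMM and tested with edgeR 4.0.16 under R 4.3.3 (robust glmQLFit, glmQLFTest, two-sided). P-values were adjusted by Benjamini and Hochberg's method across the 13947 genes, and calls were made at 0.05. The contrasts within the knockout group came from 1 fit with 3 groups. GC content and length of the longest transcript came from GENCODE M21 (a value for 99.9% of genes, and the same position for 94.8% of those matched; Robo1, Robo2 and Dcc differ in their ends), fitted per library as natural splines with 5 degrees of freedom and used as offsets. Ratios were tested by exact permutation with scipy 1.17.1 in Python 3.11.15. Alternatives used DESeq2 1.42.0, limma 3.58.1 (voom, and log2 TPM with pseudocounts of 0.1, 0.5 and 1), other scalings and filters, a replicate block and leaving out each library. The code was tested on simulated data. Each gene's counts (353 to 3789 for the 10 genes) set its counting error, and depth was similar in all libraries.

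The 10 genes, all lists and the split of the knockout libraries were chosen with earlier results of these data known. Named are the 10 genes, up to 4 tested genes of each list with the lowest p between genotypes, and the 2 nearest profiles of the 3 genes with the widest range; a few results under this rule are not reported here, and the Sst and Cdh5 values and the overlapping genes were named after their values were seen.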

Additional observations from a re-analysis of the deposited data

Results flagged for a closer look

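For 4 of the 10 genes, the knockout libraries differed among themselves by a test of that difference in edgeR: Tlr7-/- replicates 2 and 3 against Tlr7-/- replicate 1, fitted with the spread pooled over all 6 libraries. Robo2 differed by 1.06 (log2, edgeR adjusted p = 7.29e-05), Unc5a by -0.78 (log2, edgeR adjusted p = 0.00055), Slit1 by -0.58 (log2, edgeR adjusted p = 0.00167) and Unc5c by 0.40 (log2, edgeR adjusted p = 0.00933). With GC content and length offsets, Robo2 and Slit1 were called and Unc5a and Unc5c were not, at -0.06 and 0.04. The comparison has 1 library on one side, and 31.6% of all genes tested were called in it. The split of the knockout libraries was known from earlier results of these data. Groups of 3 libraries are too small for a check of single outlying values.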

How the results depend on the processing

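Between the genotypes, edgeR called none of the 10 guidance genes under the other scalings, filters, limma fits, the offsets and the replicate block. DESeq2 called 3 of them and 8 pathway genes, where it called 1754 of the 13947 genes. With naming style as a covariate, the genotype contrast is that of Tlr7-/- replicate 1 against WT, so this fit is no separate check. Leaving out a library gave 0 to 8 guidance genes and 0 to 26 pathway genes, the highest without Tlr7-/- replicate 1, where 6922 of 14107 genes were called. That fit compares the same libraries as the contrast of replicates 2 and 3 against WT, and is no separate check either. In replicate 1 against WT, where 1 guidance gene and 2 pathway genes were called, the counts of guidance genes were 4 without a filter, 4 with DESeq2, 0 with limma on TPM at each pseudocount, 2 with the offsets and 3 with the replicate block and the offsets, and those of pathway genes were 0 with library size alone, 1 with voom and 0 with limma on TPM. Leaving out a library gave 0 to 3 of each there. In replicates 2 and 3 against WT, 8 guidance genes became 2 with the offsets, and 2 with the block and the offsets, and 6 to 8 when a library was left out (19 to 26 of the pathway genes). In replicates 2 and 3 against replicate 1, the 4 guidance genes became 2 with the block and the offsets, and 4 to 6 when a library was left out, and the 15 pathway genes became 12 to 16. Comparisons with replicate 1 have no value without it.

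Same-numbered libraries of the 2 genotypes deviated together at r = 0.241, -0.084 and 0.264, so the numbers were not taken as pairs. A replicate block gave 0 guidance genes between the genotypes, 2 in replicate 1 against WT (pathway genes, 1), 8 in replicates 2 and 3 against WT, and 3 in these against replicate 1 (pathway genes, 9, and 9 with the offsets).

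With the offsets, and with the block and the offsets, signs of called genes turned in replicates 2 and 3 against WT for Slit2 (-0.0562 and -0.0233), Dcc (-0.17 and -0.10), Unc5c (-0.0292 and -0.0155), Neo1 (-0.055 and -0.0184), Sos1 (-0.104 and -0.0534), Abl2 (-0.15 and -0.16) and Src (0.0846 and 0.0485), all log2, and in replicates 2 and 3 against replicate 1 with the offsets for Sos1 (-0.14). The cause was not tested. Over all comparisons and alternatives, 611 fold changes of guidance genes kept direction and call, 39 gained a call, 23 lost it, 31 uncalled ones moved and 6 called ones turned. On the TPM scale the median of all genes in replicates 2 and 3 against WT was 0.13 (log2, pseudocount 0.1), with 4694 genes called higher and 2449 lower, in place of 3407 and 3508. RPKM in place of TPM is no check of the 6 ratios. The units differ only by a scaling common to all genes of a library, so the ratios could not change. Leaving out a library moved the Robo1 to Robo2 difference between -0.42 and 0.26. Low counts limit Robo3 (47 to 641) and Draxin (74 to 186).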
